A study of Bos taurus with 9 samples.

Results

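Bovine blastocysts were compared at day 8 of development after their oocytes had matured in a medium low in glucose and supplemented with BHB or in a control medium. The comparison took the 3 libraries of each of these media, 6 of the 9 in the series, and covered all measured genes. Cumulus-oocyte complexes, that is oocytes with the follicle cells that surround them, were kept for 24 h in TCM 199 with foetal bovine serum, pyruvate, FSH and estradiol. The control medium held 5.5 mM glucose. The other medium held 2.75 mM glucose and 1.8 mM BHB, an abbreviation that the labels leave unexplained and that is read here as beta-hydroxybutyrate, a ketone body. A low glucose medium without BHB, at 2.75 mM glucose, gave the remaining 3 libraries, whose values stand beside the main ones as a reference. Fertilisation in vitro and embryo culture were common to all groups, so the media differed only before fertilisation. Each control library came from a pool of 10, 10 or 11 embryos, and each library with BHB from a pool of 10. Whether the pools of a group were from separate cultures is not stated in the labels, and p-values thus reflect the spread among these libraries alone, part or all of which may be technical. Because glucose was lowered and BHB was added together, the effects of the 2 changes cannot be told apart in the comparison with control. The low glucose medium without BHB is therefore set beside it.

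The blastocyst consists of an outer trophectoderm, which goes on to form the placenta, and an inner cell mass that gives the epiblast and the hypoblast. Cattle enter negative energy balance after calving, when glucose in blood and follicular fluid falls and ketone bodies rise, and the oocyte matures in that environment. Beta-hydroxybutyrate enters cells through monocarboxylate transporters, is oxidised in mitochondria and can also inhibit class I histone deacetylases. Interferons act through receptors that signal by JAK kinases and STAT factors to induce antiviral genes, and the ruminant trophectoderm is itself known for secreting interferon tau.

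The 6 libraries held between 55611205 and 75178898 estimated counts. Embryonic markers were present throughout: POU5F1, a factor of pluripotent cells, lay between 888 and 1085 CPM in the 6 libraries, GATA6, a hypoblast factor, between 467 and 740 CPM, and CDX2, a trophectoderm factor, between 88.6 and 187 CPM. CPM here is a count scaled to library size with TMM factors, which makes 1 gene comparable between libraries but not 1 gene with another. Control replicate 1 stood a little apart: its log2 CPM correlated at 0.953 and 0.951 with control replicates 2 and 3, which correlated at 0.976 with each other. BHB replicate 1 did so too, at 0.956 and 0.965 with BHB replicates 2 and 3, which correlated at 0.973. No replicates agreed within sampling noise, with a chi-square of at least 38.1 times its degrees of freedom for each pair. This ratio reached 78.5 among control pairs and ran from 112 to 163 among pairs with BHB. Mitochondrially encoded transcripts took 4.93%, 5.36% and 4.75% of counts in control and 3.36%, 2.25% and 6.19% with BHB, so the groups overlapped.

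The difference between the groups ran almost wholly in 1 direction. Of 16469 genes tested with edgeR's quasi-likelihood test, 227 were lower with BHB at an adjusted p under 0.05, or 1.38% of those tested, and 1 was higher, or 0.00607%. At an unadjusted p under 0.05 the counts were 906 lower (5.5%) and 299 higher (1.82%). The median log2 fold change over all tested genes was 0.01, which TMM scaling holds near 0, so a shift of all genes together could not be seen. The spread was uneven, with the 5th percentile at -1.37 and the 95th at 0.62. The median fall was -1.95 on the log2 scale, or 3.88-fold, and 107 of the 227 were at least 4-fold. The 3 libraries with BHB lay below all 3 controls in 8.56% of all tested genes. The 227 are among these, which the call on the same values nearly fixes. The number of lower genes dropped to 121 and 90 when control replicate 1 or 3 was left out, and to 132 and 93 when BHB replicate 1 or 3 was. DESeq2 called 431 lower and 10 higher.

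The 12 genes of smallest p-value among those with a symbol that were called lower with BHB differ in known function. The first of them, MRC2, encodes an endocytic receptor that takes up collagen fragments. Its level was 360, 235 and 260 CPM in control replicates 1 to 3 and 44.6, 56.7 and 54.8 CPM with BHB. All control libraries lay more than 4-fold above all those with BHB, and the log2 fold change was -2.45 (SE 0.17, n = 3 each, edgeR adjusted p = 6.41e-05). TSC22D1, a transcription factor induced by TGF-beta, stood at 148, 98.2 and 106 CPM against 31.9, 33.9 and 35.5 CPM. Its log2 fold change was -1.80 (SE 0.15, edgeR adjusted p = 0.000427), and its libraries with BHB were close to one another. IGFBP7, a secreted protein that binds insulin-like growth factors, stood at 172, 131 and 207 CPM against 38.0, 60.6 and 46.8 CPM, again without overlap. It fell by 1.81 on the log2 scale (SE 0.19, edgeR adjusted p = 0.0024). Also among these 12 were CD276, an immune checkpoint ligand of the B7 family (log2 fold change -1.66), TNFSF18, the ligand of the receptor GITR (-3.26), HTRA1, a secreted serine protease (-2.49), and GREB1, known as an estrogen-induced gene (-2.33). FAM78A (-2.04), MMD (-1.91) and PLPP7 (-1.66) completed them together with SERPINH1 and MX1, which are described with their groups. Each of these 12 kept its call in all 9 fits that left out a library.

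**Figure D1:**
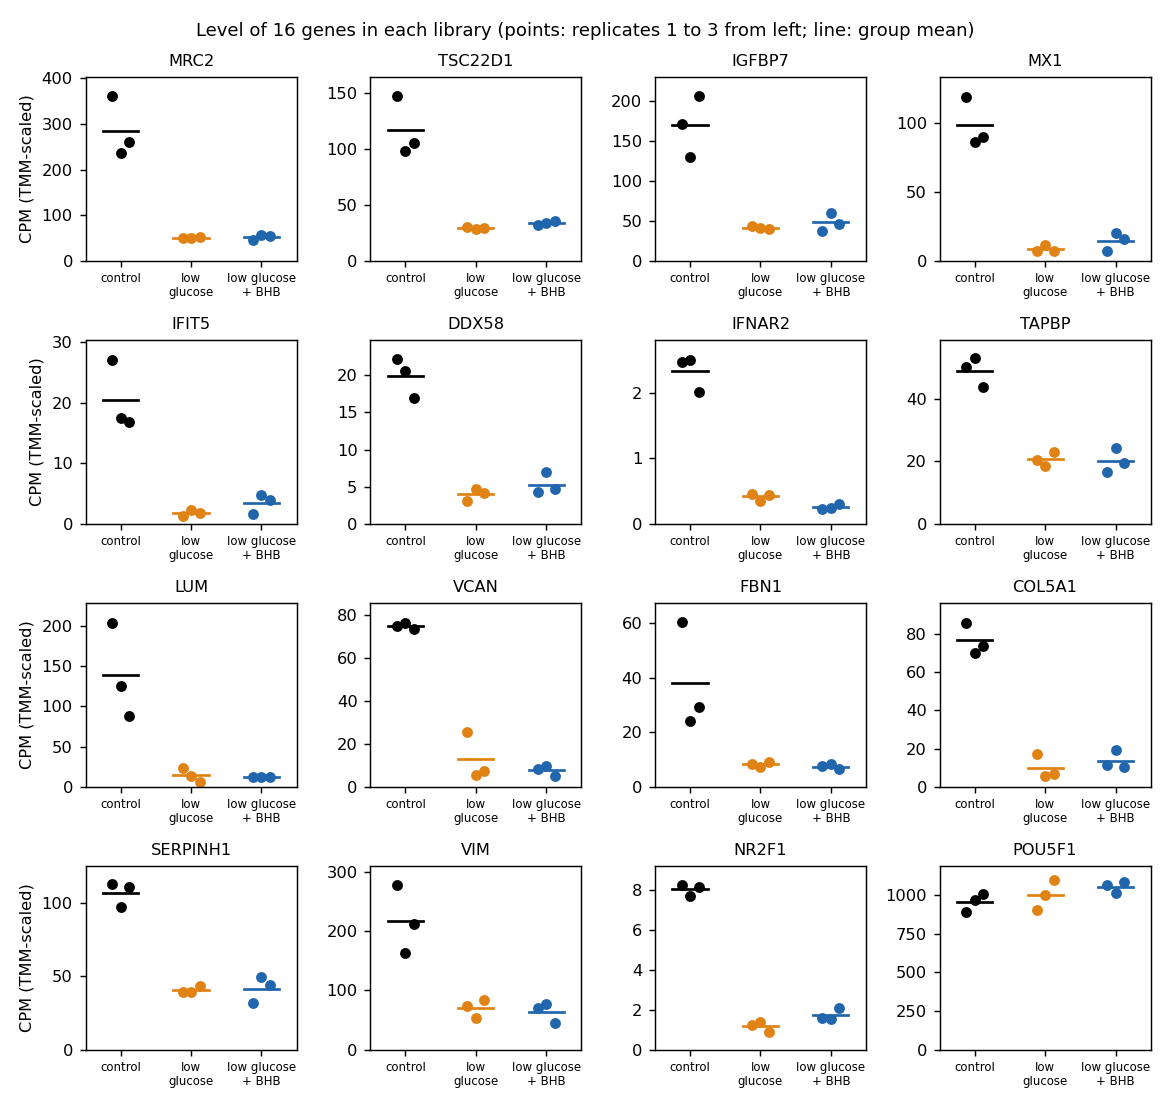
Level of 16 genes in each library (vertical axis, CPM from 0; points are replicates 1 to 3 from the left, lines are group means). In 15 of the 16 the control points lie above all points with BHB, while POU5F1, shown as a gene that did not pass, lies at 888, 968 and 1007 CPM in control and slightly above, at 1065, 1017 and 1085 CPM, with BHB.

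The interferon pathway was described by role, from receptors to effectors. Among receptors of interferons and other cytokines, 3 of 17 tested members fell, or 17.6% against 1.38% of all tested genes, with a list median of -0.29. IFNAR2, a chain of the type I interferon receptor, was at 2.47, 2.51 and 2.01 CPM in control and 0.230, 0.243 and 0.309 CPM with BHB. All 3 libraries with BHB were low, from 49 estimated counts in all against 462, and the log2 fold change was -3.15 (SE 0.46, edgeR adjusted p = 0.00559). Its partner chain IFNAR1 was at 17.4, 19.9 and 15 CPM against 14.5, 20.6 and 16.6 CPM, with overlapping groups and an estimate of -0.02 (SE 0.19) whose sign turned in some fits. IFNGR2, a chain of the interferon gamma receptor, changed by -1.95 (edgeR adjusted p = 0.019), a call lost when control replicate 1 or 3 or any library with BHB was left out (range over the 9 such fits -2.15 to -1.77). Its partner IFNGR1 had a value of 0.22 (SE 0.25). TNFRSF1A, the main receptor of tumour necrosis factor, fell from 23.8, 14.2 and 13.6 CPM to 3.18, 5.30 and 4.29 CPM (log2 fold change -2.01, SE 0.27, edgeR adjusted p = 0.0042).

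Sensors of foreign RNA and DNA had 5 of 14 tested members lower, with a median of -0.999. DDX58, the gene of the RNA sensor RIG-I, stood at 22.2, 20.5 and 16.9 CPM in control and 4.22, 6.91 and 4.67 CPM with BHB. The groups were far apart (log2 fold change -1.91, SE 0.24, edgeR adjusted p = 0.00325). The other 4 were DHX58 (-1.53) and IFIH1 (-2.14), which encode the related helicases LGP2 and MDA5, ZBP1 (-2.51), a sensor of Z-form nucleic acid, and the ubiquitin ligase gene TRIM25 (-1.26). MAVS, the adaptor downstream of RIG-I, had a value of -0.02 (SE 0.17), and its sign turned in some fits. The count of lower sensors was 1 when any control or BHB replicate 1 or 3 was left out, and 3 when BHB replicate 2 was.

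Of 21 tested signal transducers 3 fell and the median was -0.07. IRF9, which gives the interferon-activated STAT complex its DNA binding, stood at 16.6, 15.6 and 15.8 CPM in control and 10.0, 7.67 and 8.76 CPM with BHB, below all controls (log2 fold change -0.86, SE 0.19, edgeR adjusted p = 0.042). STAT6, which acts downstream of interleukin 4, changed by -1.53 (edgeR adjusted p = 0.038). STAT2 had a value of 0.06 (SE 0.13) and IRF7, the factor that amplifies interferon production, 0.31 (SE 0.14), and neither passed. Leaving out BHB replicate 1 or 3 ended all 3 calls, and leaving out any control or low glucose replicate 2 left 1 of them. Over the 9 such fits the value of IRF9 ran from -0.96 to -0.77 and that of STAT6 from -1.76 to -1.32.

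Antiviral effectors held the most falls of the pathway, 14 of 46 tested, with a median of -1.74 against 0.01 over all tested genes. Their share of lower members was 30.4%, and 30 were lower at an unadjusted p under 0.05. MX1, a GTPase that blocks viral replication, stood at 119, 86.1 and 89.7 CPM in control and 7.32, 19.9 and 15.7 CPM with BHB (log2 fold change -2.78, SE 0.32, edgeR adjusted p = 0.00325). IFIT5, which binds viral RNA, stood at 27.0, 17.4 and 16.8 CPM against 1.62, 4.74 and 3.89 CPM (-2.58, SE 0.38, edgeR adjusted p = 0.00578). In both genes BHB replicate 1 was the lowest library, and no library with BHB reached a control. USP18, the protease that removes ISG15 from proteins, fell from 24.7, 23.7 and 22 CPM to 5.50, 9.24 and 5.76 CPM (-1.78, SE 0.24, edgeR adjusted p = 0.0042). RSAD2, which encodes viperin, changed by -3.72 and, chosen after their values were seen, IFIT1 changed by -3.02, ISG15, the ubiquitin-like modifier, by -2.52 and IFI6 by -2.36. RSAD2 and IFIT1 kept their calls in 8 of the 9 fits that each left out a library, ISG15 in 5 and IFI6 in 3. MX1, the IFIT genes and the OAS genes belong to families of related genes, and how far the members of a family share reads was not measured.

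The effector count depended on the libraries. It was 7, 8 and 6 when control replicates 1, 2 and 3 were left out in turn, and 9 and 3 when BHB replicates 1 and 3 were. The highest count with 1 library left out was 16. The count was also 20 with the replicate block and in DESeq2, 16 with no filter and 13 with the 6 libraries alone. As a share of all counts, the 48 effectors in the table took 0.128%, 0.122% and 0.120% in control and 0.0486%, 0.0622% and 0.0595% with BHB, without overlap. The low glucose libraries held 0.0444%, 0.0522% and 0.0528%. Antigen presentation, a downstream arm of the response, had 1 of 17 tested members lower: TAPBP, which encodes the tapasin that loads peptides onto MHC class I, at 50.2, 53.2 and 43.9 CPM against 16.6, 24.3 and 19.4 CPM (log2 fold change -1.29, SE 0.16, edgeR adjusted p = 0.00325). At an unadjusted p under 0.05, 6 of the 17 were lower and 1 was higher, the peptide transporter gene TAP1 at 0.40 (SE 0.18), and the list median was -0.34. The count of lower members was 3 with the replicate block and 2 in DESeq2. Chemokines and cytokines had 0 of 16 members past the threshold, with 2 lower and 1 higher at an unadjusted p under 0.05, 1 lower with the replicate block and 2 lower in DESeq2.

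Genes of the extracellular matrix were also lower in part. Among proteoglycans and glycoproteins, 12 of 50 tested members fell and the list median was -0.98. LUM, which encodes the collagen-binding proteoglycan lumican, stood at 204, 125 and 88.0 CPM in control and 12.4, 12.4 and 12.1 CPM with BHB (log2 fold change -3.50, SE 0.45, edgeR adjusted p = 0.00325). The controls spread over more than 2-fold, while the libraries with BHB were nearly equal. VCAN, which encodes the large proteoglycan versican, showed the opposite spread, with controls at 74.8, 76.4 and 73.4 CPM and the others at 8.42, 9.55 and 5.15 CPM (-3.28, SE 0.48, edgeR adjusted p = 0.00578). FBN1, which encodes the microfibril protein fibrillin-1, stood at 60.3, 24.1 and 29.4 CPM against 7.63, 8.14 and 6.38 CPM (-2.36, SE 0.30, edgeR adjusted p = 0.00325). THBS2, a matricellular thrombospondin, fell by 2.93 on the log2 scale, LTBP3, which holds latent TGF-beta, by 1.21 and DCN, which encodes decorin, by 2.56. The count of 12 dropped to 7 when control replicate 1 or BHB replicate 1 or 3 was left out.

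Of 31 tested collagens 3 fell, the fibrillar chains COL5A1, COL5A2 and COL3A1, and 10 were lower and 0 higher at an unadjusted p under 0.05. The list median was -0.69. COL5A1 stood at 86.0, 70.0 and 74.0 CPM in control and 11.1, 19.3 and 10.3 CPM with BHB (log2 fold change -2.49, SE 0.37, edgeR adjusted p = 0.00588). COL5A2 changed by -2.14 and COL3A1 by -2.21, and both lost their calls when control replicate 1 or BHB replicate 1 or 3 was left out, COL3A1 also for control replicates 2 and 3. Over the 9 such fits COL5A2 ran from -2.26 to -1.88 and COL3A1 from -2.46 to -1.97. The chains of collagen VI, which is not fibrillar, came close to the threshold: COL6A1 had a value of -1.67 and COL6A2 -1.43, at edgeR adjusted p-values of 0.0517 and 0.0647. Both were called lower with no filter, with the replicate block and in DESeq2, and COL6A1 also in limma-voom. The basement membrane chains COL4A1 and COL4A2, chosen after their values were seen, overlapped between groups: COL4A1 lay at 412, 423 and 387 CPM in control and 356, 553 and 334 CPM with BHB (0.03, SE 0.18). COL4A2 had a value of 0.02 (SE 0.23), and the signs of both turned in some fits. The collagen count was 1 when control replicate 1 or BHB replicate 3 was left out and 5 when low glucose replicate 2 or 3 was. It was 5 in limma-voom, 6 with the replicate block, 7 with no filter and 8 in DESeq2.

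Enzymes that fold, modify and cleave collagen had 4 of 23 tested members lower, with a median of -0.86. SERPINH1, which encodes the collagen chaperone HSP47, stood at 113, 97.1 and 111 CPM in control and 31.6, 49.4 and 43.9 CPM with BHB, without overlap (log2 fold change -1.36, SE 0.16, edgeR adjusted p = 0.00325). BMP1, the protease that removes the C-propeptide of procollagen, fell by 2.10 (SE 0.29), and the lysyl hydroxylases PLOD1 and PLOD2 by 1.51 and 1.76 on the log2 scale. P4HB, a chaperone and prolyl hydroxylase subunit of all secretory cells that was chosen after its value was seen, had a value of 0.07 (SE 0.15), whose sign turned in some fits. Leaving out control replicate 3 or BHB replicate 3 lowered the count of 4 to 2. Matrix proteases and their inhibitors had 4 of 44 tested members lower. Among them ADAM12, a membrane metalloprotease, fell from 3.24, 2.59 and 3.18 CPM to 0.246, 0.310 and 0.255 CPM (-3.46, SE 0.51, edgeR adjusted p = 0.00588), and PLAT, the tissue plasminogen activator, by 2.70 on the log2 scale. That count was 2 when control replicate 3 or BHB replicate 1 was left out, 1 when BHB replicate 3 was and 7 when low glucose replicate 3 was, and also 7 with no filter, in DESeq2 and in limma-voom.

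Fibroblast and stromal markers, which include several of these matrix genes, were also lower in part. Of 16 tested markers, 4 fell (LUM, DCN, PDGFRB and COL3A1) with a median of -1.45, or -0.95 without control replicate 1. The count was 7 with no filter, with the replicate block and in DESeq2. Their summed share of counts was 0.118%, 0.0540% and 0.0490% in control and 0.0339%, 0.0239% and 0.0167% with BHB, without overlap, and control replicate 1 was the highest by over 2-fold. None of the 18 markers in the table was at 0 in all 6 libraries. The part of such cells in the falls was not tested. In bulk libraries fewer cells of a type and less RNA per cell cannot be told apart.

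Cumulus and granulosa cells surround the oocyte during maturation, and their markers had 5 of 25 tested members lower with a median of -0.84. The 5 were VCAN, the gap junction gene GJA1 (-2.17), the nuclear receptor genes NR5A2 (-1.37) and NR5A1 (-1.95), and SERPINE2 (-0.73). At an unadjusted p under 0.05, 10 of the 25 were lower and 0 higher. Several genes known for their part in granulosa cells were then chosen with their values in view, and none of them passed in the fit of all 9 libraries. The inhibin and activin subunit genes INHBB and INHBA had values of -0.97 (SE 0.25) and -0.93 (SE 0.30), the ovarian transcription factor gene FOXL2 -0.87 (SE 0.43) and STAR, of cholesterol import into mitochondria, -0.54 (SE 0.23). INHBB was called lower with the 6 libraries alone, in DESeq2 and without low glucose replicate 3. AMH, a hormone of granulosa cells, had -0.94 (SE 0.66) at levels of at most 1.45 CPM in all 6 libraries. CYP19A1, which encodes the aromatase that makes estradiol, lay at 17.1, 28.6 and 17.9 CPM in control and 18.4, 20.7 and 27.9 CPM with BHB, with overlapping groups (log2 fold change 0.08, SE 0.22, of either sign over the fits that left out a library). FSHR, the receptor of FSH, had a value of -0.22 (SE 0.25). The list's other members, added after their values were seen, went both ways, and none passed in the fit of all 9 libraries. LHCGR (0.92), PTGS2 (0.56), AMHR2 (0.44), HSD3B1 (0.39) and TNFAIP6 (0.19) had estimates above 0. Below 0 were PTX3 (-2.51), HAS2 (-1.80), EREG (-1.50), INHA (-1.24), GREM1 (-0.84), CYP11A1 (-0.55), BTC (-0.47) and PGR (-0.45). AREG was at 0 in all 6 libraries. The summed share of the list was 0.106%, 0.112% and 0.107% in control and 0.0789%, 0.131% and 0.0932% with BHB, which overlapped. PTGS2, also on the trophectoderm list, was the largest member in each of the 6 libraries. In control it gave 355, 544 and 454 CPM of a list sum of 991, 1102 and 1072 CPM. With BHB it gave 464, 928 and 606 CPM of 765, 1327 and 946 CPM. The overlap thus holds for the sum that includes this gene. What remains of the sum without PTGS2 was lower in every library with BHB than in every control. Leaving out replicate 1 of control or BHB gave a count of 3 in place of 5, and leaving out replicate 3 of either gave 1. Among leukocyte, endothelial, sperm and oocyte lists, none of 17, 8, 7 and 17 tested markers passed edgeR's test or DESeq2's, and 1, VWF, was lower at an unadjusted p under 0.05. Of the endothelial markers, CDH5 and EMCN were at 0 in all 6 libraries.

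**Figure D2:**
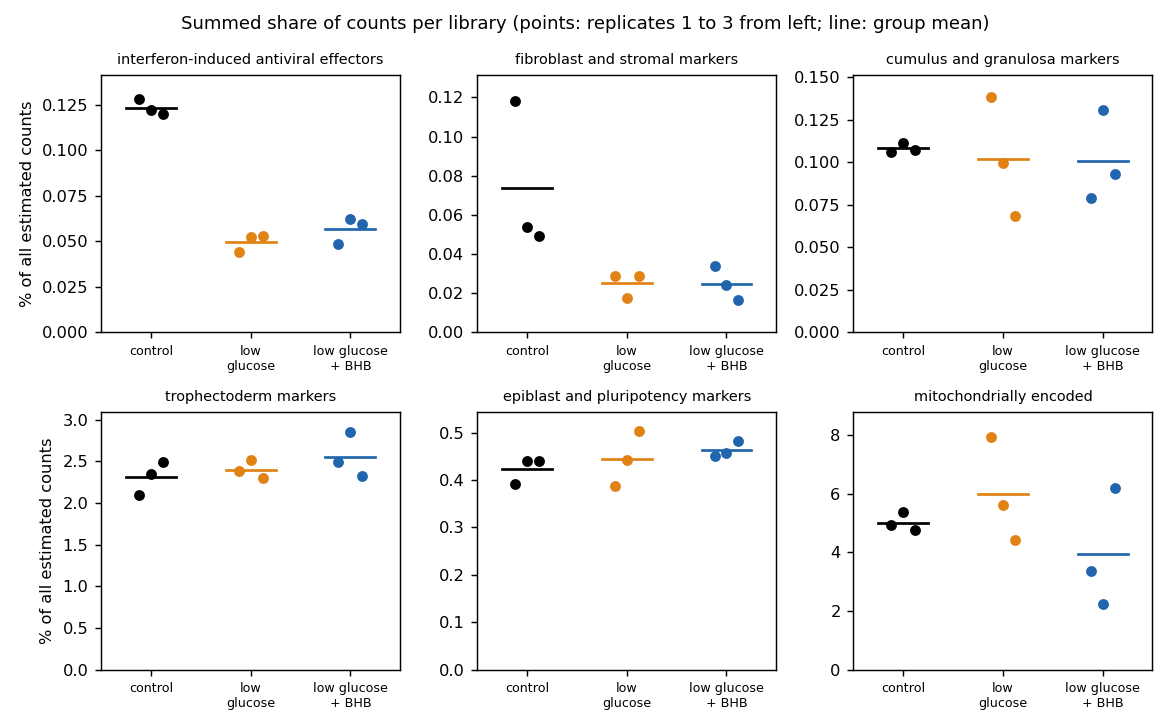
Summed share of all estimated counts taken by 6 gene lists in each library (vertical axis, percent from 0; points are replicates 1 to 3 from the left, lines are group means). Antiviral effectors and stromal markers are higher in each control than in each library with BHB, with control replicate 1 far above the other controls for the stromal list. The epiblast list is higher in each library with BHB than in each control, and the other panels overlap. The cumulus and granulosa sum includes PTGS2, its largest member, which is also on the trophectoderm list. In CPM, the sum without PTGS2 did not overlap between control and BHB.

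Cytoskeletal, adhesion and transcription factor genes of mesenchymal cells were lower in part. Of 57 tested contractile and intermediate filament genes 7 fell, with a median of -0.03. PDLIM3, which encodes an actinin-binding protein of the Z-disc, stood at 10.5, 10.2 and 11.6 CPM in control and 0.443, 0.513 and 0.509 CPM with BHB, or 22-fold lower (log2 fold change -4.46, SE 0.68, edgeR adjusted p = 0.00675). VIM, the vimentin gene, stood at 278, 164 and 212 CPM against 70.0, 76.8 and 44.3 CPM (-1.77, SE 0.24, edgeR adjusted p = 0.00433). Both sets of libraries were apart, and NES, the nestin gene, fell by 1.43 on the log2 scale. The count of 7 fell to 4 when replicate 1 or 3 of either group was left out.

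Of 35 tested adhesion receptors 5 fell, with a median of -0.37. CD44, the hyaluronan receptor, stood at 5.50, 12.4 and 11.0 CPM in control and 1.90, 1.92 and 1.75 CPM with BHB (log2 fold change -2.37, SE 0.33, edgeR adjusted p = 0.00433). CDH2, the N-cadherin gene, stood at 67.6, 69.3 and 84.1 CPM against 8.10, 23.8 and 20.7 CPM (-2.07, SE 0.32, edgeR adjusted p = 0.00759). BHB replicate 1 was lowest for CDH2, and neither gene overlapped between groups. CDH11, a cadherin of mesenchymal cells, fell by 2.27 and the integrin chain ITGAV by 1.46 on the log2 scale.

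Among 39 tested mesenchymal transcription factors 6 entries fell, with a median of -0.31. NR2F1, an orphan nuclear receptor, stood at 8.25, 7.71 and 8.17 CPM in control and 1.61, 1.54 and 2.11 CPM with BHB (log2 fold change -2.20, SE 0.28, edgeR adjusted p = 0.00325). The groups were tight and far apart. ZEB2, a repressor of epithelial genes, counts as 2 entries of that name in the table, of which the first fell by 2.22. RUNX2, a factor of bone formation, changed by -2.78 and SNAI2 by -3.50. The count of 6 dropped to 2 when control replicate 1 was left out and to 1 when replicate 3 of either group was.

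Signalling genes were also among the falls. In the TGF-beta and BMP pathway 3 of 37 tested members fell, with a median of -0.22, and the count was 3 in each fit that left out a library. They were a ligand, a receptor and a target. BMP2, the ligand, stood at 41.0, 51.4 and 52.2 CPM in control and 8.97, 15.8 and 15.7 CPM with BHB (log2 fold change -1.84, SE 0.24, edgeR adjusted p = 0.0042). BMPR1B, a receptor, stood at 11.7, 7.29 and 8.41 CPM against 1.51, 2.42 and 1.89 CPM (-2.23, SE 0.31, edgeR adjusted p = 0.00433), and ID3, a known target of the pathway, at 10.0, 4.85 and 8.28 CPM against 1.05, 1.73 and 1.95 CPM (-2.29, SE 0.36). In all 3 genes every library with BHB lay below every control. The insulin and IGF system had 3 of 28 lower (IGFBP7, IGFBP5 at -1.69 and FOXO1 at -1.84), and the FGF, EGF and PDGF list 3 of 30. PDGFRB, the receptor of platelet-derived growth factor B, fell from 14.4, 11.6 and 16.9 CPM to 1.87, 2.78 and 4.35 CPM (-2.26, SE 0.34, edgeR adjusted p = 0.00673), and PDGFC, a ligand, and SPRY1, a feedback inhibitor, changed by -2.45 and -2.43. With 1 library left out at a time, PDGFC kept its call in 8 of 9 fits and SPRY1 in 2, with a range of -2.77 to -2.03, and SPRY1 also lost it with the replicate block, with the 6 libraries alone and in limma-voom. Both of these lists had 1 fall when control replicate 3 was left out, the insulin and IGF list also for BHB replicate 3.

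**Figure D3:**
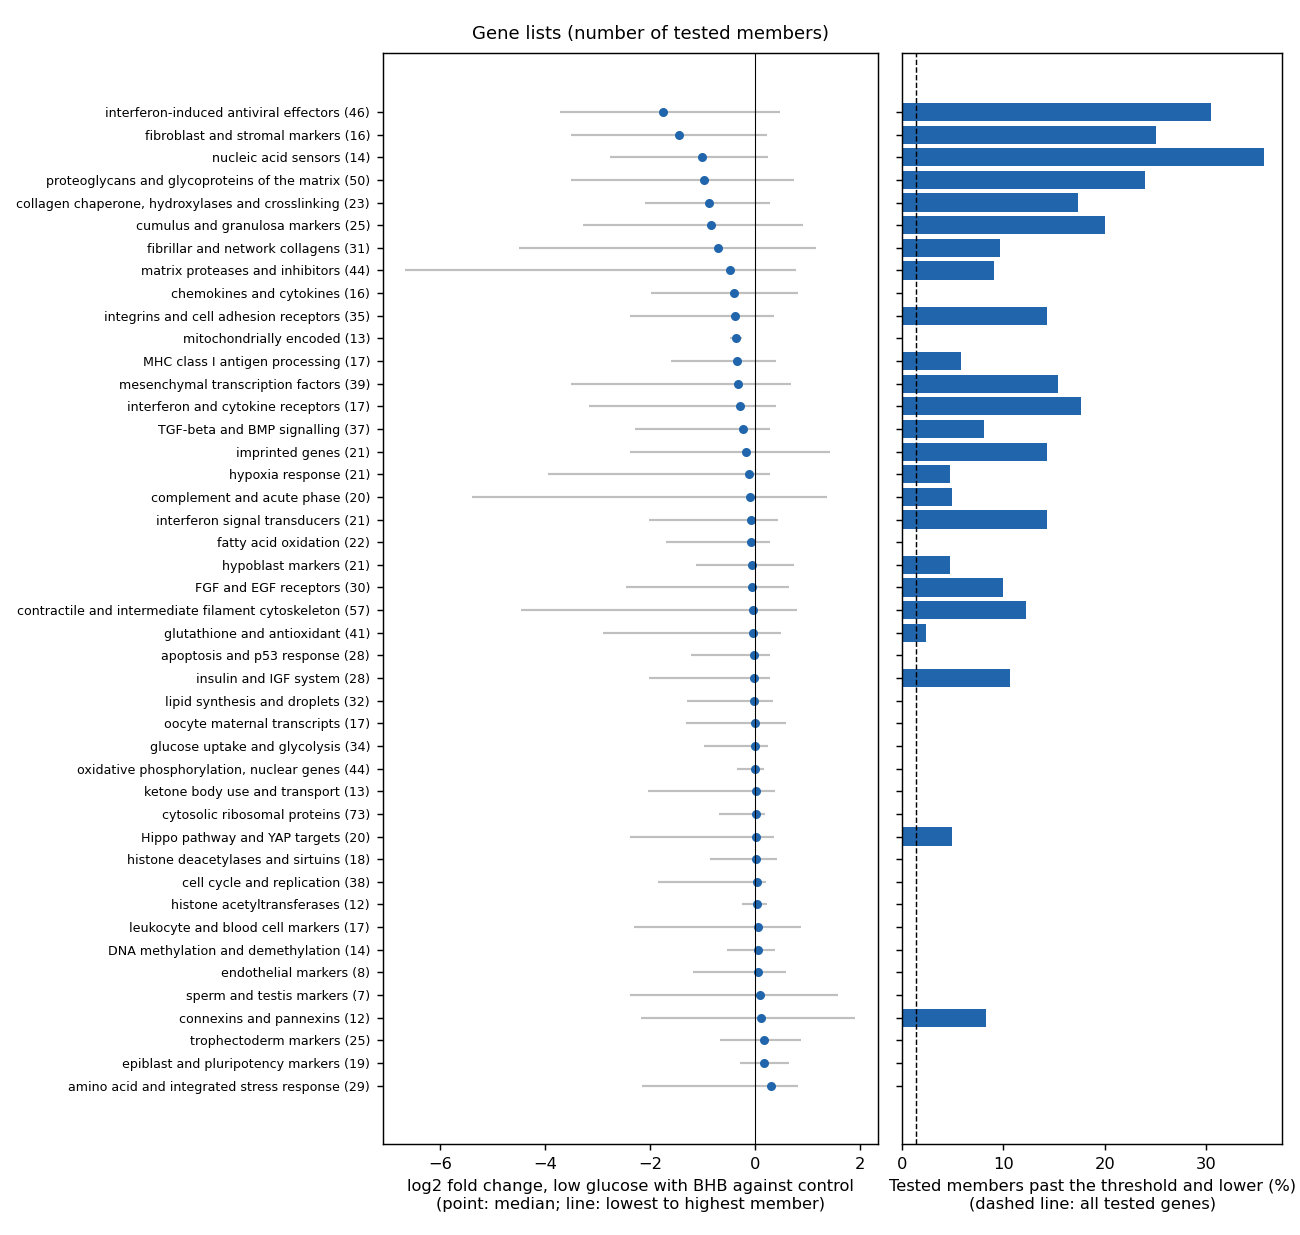
Median log2 fold change of the tested members of 44 gene lists, with the lowest and highest member (left, log2), and the percentage of members past the threshold and lower (right; dashed line, 1.38% of all tested genes). Antiviral effectors, nucleic acid sensors, stromal markers and matrix glycoproteins stand at the top, while 20 lists, among them glycolysis, oxidative phosphorylation and ribosomal proteins, have no fall in this fit.

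Lineage genes of the blastocyst, with 1 exception, did not pass the test. Of 25 tested trophectoderm markers and 19 epiblast markers 0 passed in edgeR and 0 in DESeq2, and both medians were 0.18. At an unadjusted p under 0.05, 4 trophectoderm and 0 epiblast markers were higher and 0 lower. Over all tested genes 1.82% were higher and 5.5% lower at that cut. The summed share of the epiblast list was 0.392%, 0.440% and 0.440% in control and higher with BHB, at 0.452%, 0.458% and 0.482%. Trophectoderm shares overlapped. POU5F1 changed by an estimated 0.15 on the log2 scale (95% interval -0.08 to 0.38), CDX2 by 0.22 (-0.23 to 0.68) and the hypoblast factors GATA6 and SOX17 by 0.29 (-0.04 to 0.61) and 0.74 (-0.29 to 1.77). These intervals leave out a fall of more than 1 on the log2 scale for each of the 4 genes. GATA4, another hypoblast factor and 1 of 21 tested, stood at 36.2, 40.0 and 48.7 CPM against 13.8, 26.5 and 16.9 CPM (-1.13, SE 0.24, edgeR adjusted p = 0.043). That call was lost in 6 of the 9 fits that left out a library (any control, low glucose replicate 3, BHB replicate 1 or 3), with log2 fold changes from -1.44 to -0.94. Of 21 imprinted genes 3 fell, among them PEG10, a paternally expressed gene needed for the placenta, from 28.0, 20.4 and 22.3 CPM to 6.23, 9.10 and 9.24 CPM (-1.53, SE 0.22, edgeR adjusted p = 0.00536). That list had 1 fall when control replicate 2 or 3 or BHB replicate 1 or 3 was left out.

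Genes that handle ketone bodies and glucose, the substances that the media varied, had no member past the threshold in the fit of all 9 libraries, while 1 glycolytic gene, PFKP, passed in some other fits. Of 13 tested ketone genes, 1 was lower and 0 were higher at an unadjusted p under 0.05, and DESeq2 called 1 lower, while edgeR called 0 under each alternative run. SLC16A1, a monocarboxylate transporter that carries beta-hydroxybutyrate, had an estimated change of 0.12 on the log2 scale (95% interval -0.25 to 0.48). BDH1, the mitochondrial enzyme that oxidises beta-hydroxybutyrate, had 0.02 (-0.59 to 0.62), OXCT1, which activates acetoacetate, -0.09 (-0.52 to 0.34) and ACAT1, which splits acetoacetyl-CoA, 0.05 (-0.26 to 0.36). Values of OXCT1, ACAT1 and BDH1 changed sign in some fits, so they carry no direction. SLC16A3, a lactate exporter, was the member with the smallest p, at 5.41, 9.02 and 8.19 CPM in control and 3.61, 3.64 and 3.20 CPM with BHB. Its groups did not overlap, but the log2 fold change of -1.11 (SE 0.27) missed the threshold (edgeR adjusted p = 0.082).

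Of 34 tested genes of glucose uptake and glycolysis none passed in the fit of all 9 libraries, and the median was 0.01. At an unadjusted p under 0.05, 2 were lower and 0 higher, beside 5.5% lower and 1.82% higher over all tested genes. The transporters SLC2A1 and SLC2A3 had values of 0.04 (95% interval -0.19 to 0.27) and -0.02 (-0.53 to 0.49), whose signs turned in some fits. PFKP, a phosphofructokinase, stood at 17.5, 18.7 and 15.9 CPM against 10.8, 8.03 and 7.75 CPM, without overlap, at an edgeR adjusted p of 0.054 (log2 fold change -0.97, SE 0.22). It was called lower in edgeR with no filter, with a mean count of at least 50, with the 6 libraries alone and without low glucose replicate 3, and in DESeq2 and limma-voom. TXNIP, a gene induced by glucose, had -0.84 (-1.51 to -0.16) and did not pass after adjustment. HIF1A, the oxygen-regulated factor that drives glycolytic genes, stood at 78.0, 107 and 94.1 CPM against 34.6, 55.2 and 50.7 CPM (-0.99, SE 0.18, edgeR adjusted p = 0.018). It was the sole fall among 21 tested hypoxia genes, and its call was lost when control replicate 2 or 3 or BHB replicate 3 was left out (range over the 9 such fits -1.12 to -0.81).

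Histone deacetylases, which beta-hydroxybutyrate can inhibit as proteins, had 0 of 18 tested deacetylase and sirtuin transcripts past the threshold in edgeR or DESeq2, with 1 higher at an unadjusted p under 0.05. HDAC1 was estimated at 0.05 on the log2 scale (95% interval -0.24 to 0.33, of either sign over the fits that left out a library), HDAC2 at -0.25 (-0.51 to 0.02) and HDAC3 at -0.23 (-0.51 to 0.05). Transcript levels do not measure the activity of these enzymes. In the lists for nuclear oxidative phosphorylation genes (44 tested), fatty acid oxidation (22), histone acetyltransferases (12), cell cycle (38) and cytosolic ribosomal proteins (73), edgeR and DESeq2 called 0, with medians between -0.06 and 0.04. At an unadjusted p under 0.05 they held 1 gene, the ribosomal RPL12, at -0.68. Among 41 glutathione and antioxidant genes 1 fell, or 2.44% against 1.38% of all tested genes. It was GSTA1, a glutathione transferase, which went from 16.9, 10.5 and 18.7 CPM to 1.12, 3.27 and 1.80 CPM (log2 fold change -2.89, SE 0.40, edgeR adjusted p = 0.00433).

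**Figure D4:**
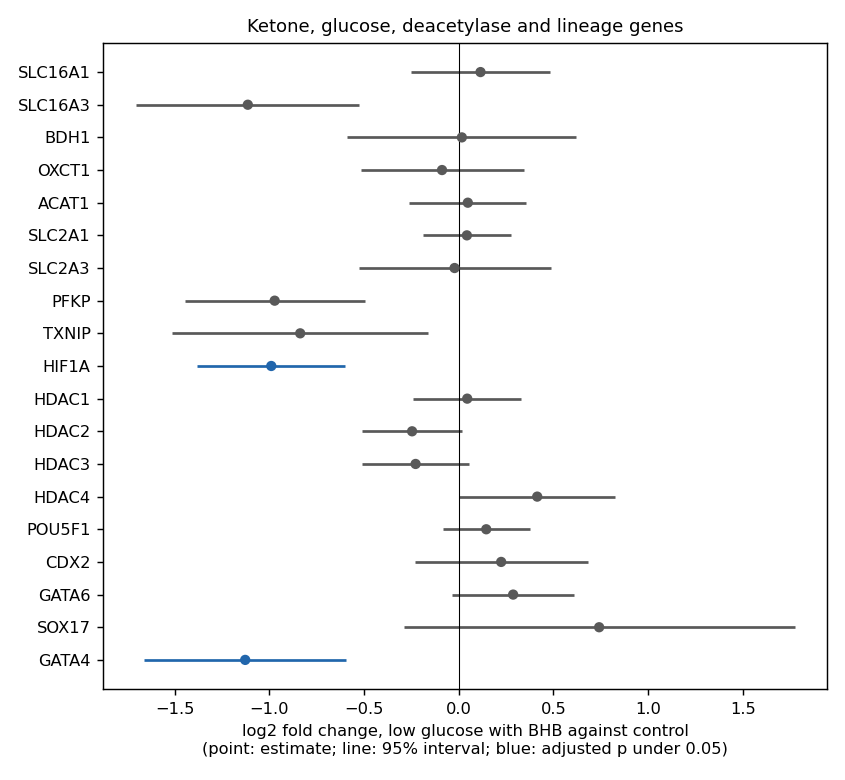
Log2 fold change of 19 genes of ketone and glucose handling, deacetylation and lineage, low glucose with BHB against control (points, with lines for the 95% interval). HIF1A and GATA4, blue, passed the threshold, the intervals of SLC16A3, PFKP and TXNIP lie below 0 although these genes did not pass after adjustment, that of HDAC4 lies just above 0, and the others cross 0.

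The 1 gene past the threshold in the upward direction has no symbol, ENSBTAG00000049212. It had 0 counts in each control library and 0.919, 1.71 and 1.15 CPM with BHB, from 246 counts in all. Set against a floor of 3 counts over the control group, its level was at least 85.6-fold higher, a bound that covers counting error only, at an edgeR adjusted p of 0.018. The call was lost when control replicate 3 or BHB replicate 2 or 3 was left out, although the fitted log2 values, which depend on the prior count and are no bound, ran from 9.04 to 9.55 over the 9 such fits. Genes with a symbol that were higher without overlap, as were 4.77% of tested genes, did not pass in the edgeR fit of all 9 libraries. ACP5, which encodes a phosphatase of osteoclasts and macrophages, stood at 32.4, 36.1 and 33.1 CPM in control and 49.6, 49.7 and 42.6 CPM with BHB (log2 fold change 0.48, SE 0.12, edgeR adjusted p = 0.079). NFATC1, a calcium-regulated transcription factor, stood at 5.95, 5.94 and 5.95 CPM against 11.7, 10.9 and 7.78 CPM (0.77, SE 0.21). C1R, a complement protease, had a value of 1.06 and CASZ1, a zinc finger factor, 1.25, while LRRC8E had 0.48 and DUSP8 0.44. FOXJ1, a factor of ciliated cells, had 60 counts against 1, a ratio of 62.7 (95% counting interval 10.8 to 2516), and LHB, the beta chain of luteinizing hormone, 70 against 2, a ratio of 36.6 (9.75 to 308). DESeq2 called all of these genes with a symbol higher except DUSP8, at DESeq2 adjusted p-values from 0.00904 (ACP5) to 0.0496 (LRRC8E).

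The 2 low glucose media were then set against each other, which tests what BHB added. In edgeR 0 of 16469 genes passed in either direction, with 97 lower (0.589%) and 173 higher (1.05%) at an unadjusted p under 0.05. DESeq2 called 1 lower, ENSBTAG00000047356, and 1 higher, ENSBTAG00000049212. ENSBTAG00000049212 had 3 counts in the low glucose group, all in replicate 2, and 246 with BHB (log2 fold change 6.23, SE 1.23, edgeR unadjusted p = 0.000488). ENSBTAG00000047356, chosen after its values were seen, stood at 1.62, 0.718 and 2.88 CPM in low glucose and 0, 0.175 and 0.0727 CPM with BHB. It was also lower with BHB than in control, where it stood at 2.07, 1.87 and 0.788 CPM (-4.17, edgeR adjusted p = 0.042), a call kept in 2 of the 9 fits that each left out a library, over which it ran from -5.41 to -3.61. Its call was lost when any control, low glucose replicate 1 or 3, or BHB replicate 1 or 3 was left out.

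Genes named by smallest p in this comparison were all at an edgeR adjusted p near 1 and mostly low in level. GRB14, an adaptor that binds the insulin receptor, had 74 counts with BHB and 1 in low glucose, and 74 in control. IQUB had 54 counts with BHB and 0 in low glucose, and 26 in control. LSAMP, a neuronal adhesion protein, stood at 0.738, 0.499 and 1.11 CPM with BHB, 0.290, 0.0845 and 0.0339 CPM in low glucose and 2.02, 4.42 and 3.18 CPM in control, so the group with BHB lay between the others. On the lower side were ADCYAP1, which encodes the neuropeptide PACAP (-3.76), GASK1B (-2.36) and RPL12 (-0.87).

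For the genes that fell against control, the 2 low glucose media gave these levels side by side, both set against the same control libraries. MRC2 averaged 50.9 CPM in low glucose, and the log2 difference between BHB and low glucose was 0.03 (95% interval -0.31 to 0.38). TAPBP averaged 20.6 CPM (difference -0.04, -0.39 to 0.32) and SERPINH1 41.0 CPM (0.02, -0.31 to 0.36). FBN1 averaged 8.16 CPM (-0.14, -0.77 to 0.48) and LUM 14.3 CPM (-0.22, -1.12 to 0.67), so for these matrix genes the intervals are wider. In the antiviral genes the estimates were above 0: MX1 averaged 8.39 CPM (0.77, 0.10 to 1.44), IFIT5 1.74 CPM (0.97, 0.16 to 1.78) and USP18 4.71 CPM (0.54, 0.03 to 1.05). Their unadjusted edgeR p-values were 0.0283, 0.0222 and 0.0408, and none passed after adjustment. TNFSF18 was the reverse, with 3.44, 1.96 and 2.46 CPM in low glucose above 0.804, 1.51 and 1.27 CPM with BHB (-1.13, unadjusted p = 0.00917).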

How the data were processed

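RNA was sequenced from 9 pools of bovine blastocysts after poly(A) selection, per the labels' protocols. The authors deposited estimated counts for each gene, 22.5% of them not whole numbers. The tools DESeq2, fastp and kallisto and the build bosTau9 are listed in the submitters' processing notes, without versions, roles or an annotation. Kallisto estimates how reads that fit several transcripts divide among them, which leaves near-identical copies uncertain. Of 22127 genes, 17706 had a symbol in the table, 323 took one from RefSeq ARS-UCD2.0, used for names alone, and 4098 had none.

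Counts were rounded and fitted with edgeR 4.0.16 (R 4.3.3). Genes were kept by filterByExpr (minimum count 10, minimum total 15), which left 16469 and set 5658 aside, and libraries were scaled by TMM. All 9 libraries entered a single quasi-likelihood fit with a mean per group, from which two-sided tests were taken and adjusted by Benjamini and Hochberg's method over all tested genes (threshold 0.05). The biological coefficient of variation common to all genes was 0.322. SE and 95% intervals come from the fold change and F statistic. The pipeline was tested on simulated data.

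The comparison, the 44 gene lists and the named genes were chosen with earlier results of these data known, so no list is independent support, and lists carry no test. Named genes were the 12 falls of smallest p and the 10 largest falls (controls of at least 1 CPM), both among genes with a symbol. Added to them were each higher gene with 8 more of smallest p without overlap, up to 4 passing members of each list or the member of smallest p, genes of interest, and the 3 smallest p in each direction against low glucose. Genes outside this rule are IFNAR1, IFNGR1, MAVS, TRIM25, STAT2, IRF7, TAP1, IFIT1, ISG15, IFI6, COL4A1, COL4A2, P4HB, COL6A1, COL6A2, CYP19A1, FSHR, AMH, INHBB, INHBA, FOXL2, STAR, AREG and those marked in the text, all chosen after their values were seen.

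Alternatives were RLE factors, no filter, a mean count of at least 50, a replicate block, a fit of the 6 libraries alone, DESeq2 1.42.0, voom of limma 3.58.1, scaling without mitochondrially encoded genes, and leaving out each library. Promoter motifs were planned and not analysed here, and a few genes are not reported here. Between the low glucose media, deviations of same-numbered libraries correlated at 0.115, 0.243 and 0.102, so these numbers pair samples by that rule, from the data alone.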

Additional observations from a re-analysis of the deposited data

How the results depend on the processing

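Against control, DESeq2 called 431 lower and 10 higher genes, the other alternatives with all compared libraries 225 to 274 lower, and fits that left out 1 library 90 to 256 lower and 0 to 1 higher. With a mean count of at least 50, edgeR called 0 higher, with 227 at an unadjusted p under 0.05, and without BHB replicate 2 also 0, with 248. Of the 227 lower genes, 226 remained with RLE factors and 90 without control replicate 3. Replicate numbers were not taken to pair BHB with control. Same-numbered deviations correlated at 0.144, 0.0626 and 0.0458, but BHB replicates 2 and 3 correlated slightly better with another control, at 0.0692 and 0.0465. A rule missed by so little cannot show that pairing is absent. With the replicate block, 274 genes were lower and 4 higher (PYCR1, ABCG5, PHGDH and ENSBTAG00000049212). Between the low glucose media edgeR and limma-voom called 0 under each alternative run, the replicate block included, and DESeq2 1 lower and 1 higher. Promoter motifs were not run.

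Values near 0 turned sign. Over the fits that left out 1 library, ACAT1 ran from -0.071 to 0.12, BDH1 from -0.27 to 0.19, OXCT1 from -0.17 to 0.025, SLC2A1 from -0.037 to 0.097, SLC2A3 from -0.12 to 0.099, HDAC1 from -0.028 to 0.16, CYP19A1 from -0.11 to 0.36, IFNAR1 from -0.17 to 0.094, MAVS from -0.10 to 0.086, P4HB from -0.11 to 0.21, COL4A1 from -0.24 to 0.16 and COL4A2 from -0.30 to 0.22. The replicate block gave -0.026 for BDH1, -0.0057 for COL4A1 and -0.027 for COL4A2, and limma-voom -0.0057 and -0.026 for the last 2. The causes were not tested. Depth limits low genes: at 3 libraries a group and a coefficient of variation of 0.322, small changes are hard to detect.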

Other observations

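Of the 227 lower genes, 140 belong to none of the 44 lists, and 2 sets of 4 were picked from them after their values were seen, so they describe these genes and no wider group. The first 4 bind or carry retinoids or respond to them. STRA6, the cell surface receptor for retinol-binding protein, stood at 64.8, 41.9 and 55.4 CPM in control and 4.15, 11.3 and 10.5 CPM with BHB (log2 fold change -2.64, SE 0.41, edgeR adjusted p = 0.0074). Its groups did not overlap, and the call was kept in each fit that left out 1 library. RBP4, which carries retinol in blood, fell by 1.73 on the log2 scale, a call lost without control replicate 1 (range over the fits -1.89 to -1.39). RARRES2, the chemerin gene, changed by -2.31 and CRABP2, which carries retinoic acid to the nucleus, by -2.10. Both of the last lost their calls when control replicate 1 or 3 or BHB replicate 3 was left out, and CRABP2 also for control replicate 2 and low glucose replicate 1, with log2 fold changes from -2.79 to -1.93 and from -2.48 to -1.66.

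The other 4 are known from peptide secretion and neuroendocrine cells. PAM, the enzyme that amidates secreted peptides, stood at 93.2, 69.0 and 102 CPM in control and 14.5, 22.1 and 19.9 CPM with BHB (log2 fold change -2.22, SE 0.28, edgeR adjusted p = 0.00325). VGF, a granule protein, stood at 39.4, 56.6 and 27.5 CPM against 6.07, 10.8 and 4.87 CPM (-2.50, SE 0.34, edgeR adjusted p = 0.00433). UCHL1, a deubiquitinase abundant in neurons, stood at 51.0, 61.6 and 72.3 CPM against 8.07, 21.4 and 17.6 CPM (-1.97, SE 0.29, edgeR adjusted p = 0.0058). In all 3 genes every library with BHB lay below every control. SCG2, another granule protein, changed by -1.58, and its call was lost without control replicate 3 or BHB replicate 3 (range over the fits -1.68 to -1.41). Against low glucose the differences of STRA6, PAM, VGF and UCHL1 were -0.42, 0.15, -0.51 and 0.18, with unadjusted p-values of 0.3, 0.59, 0.15 and 0.53.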
